A study of Mus musculus with 12 samples.

Results

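Of the 49568 genes in the count table, 9 that hold a cell in the G1 phase of the cell cycle, or let it pass through, are described here across 4 groups of mouse cardiomyocytes. They were chosen by name: the cyclin-dependent kinase (CDK) inhibitors Cdkn1a, Cdkn1b, Cdkn1c and Cdkn2c, the D cyclins Ccnd1, Ccnd2 and Ccnd3, the retinoblastoma gene Rb1 and the p53 gene Trp53. The study set pressure overload of the heart against the loss of the myocardin-related transcription factors MRTF-A and MRTF-B, which act on gene expression as partners of the factor SRF. Pressure overload came from transverse aortic constriction (TAC), a surgical narrowing of the aorta, and sham surgery served as its control. RNA of isolated cardiomyocytes was sequenced in 12 libraries, 3 for each genotype, control or dKO, after each surgery, sham or TAC. All 9 genes had enough reads to be tested.

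Control mice carried alphaMHC-MerCreMre/+, a tamoxifen-inducible Cre recombinase driven in cardiomyocytes by the alpha-myosin heavy chain promoter. The dKO mice carried MHC-MerCreMre/+ together with Mrtf-a-/- and Mrtf-bflox/flox, so that Mrtf-a was missing in every cell of the animal and Mrtf-b was removed where the Cre acted. Both genotypes therefore carried the Cre, and per the labels' protocols all mice were males that received tamoxifen at 8 weeks of age, 30 ug/g on 3 days. Surgery is placed at 10 weeks by the protocol and at 8 weeks by the series' design text, and hearts were taken 7 days later, at 11 weeks. Cells were freed by Langendorff perfusion and cardiomyocytes were separated by letting them settle for 10 min, a step that enriches myocytes without removing every other cell. Nothing in the labels says whether the 3 libraries of a group came from separate animals, so the p-values measure the spread between these libraries, which may be technical.

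As background, growth signals raise the D cyclins, which bind CDK4 and CDK6 and phosphorylate the retinoblastoma protein. The phosphorylated protein lets go of the E2F factors, and these switch on the genes of DNA replication. Inhibitors of the CIP/KIP family (Cdkn1a, Cdkn1b, Cdkn1c) and of the INK4 family (Cdkn2c) act against the kinases, and p53 induces Cdkn1a after DNA damage. Mammalian cardiomyocytes leave the cell cycle soon after birth, and the CDK inhibitors and the retinoblastoma gene are among the genes that hold them there.

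Library totals lay between 20082000 and 29675212 counts, and levels are given as CPM, reads of a gene scaled to a common library size with TMM factors. Those of the 9 genes rest on at least 100 reads in each library. Each targeted gene was lower in every dKO library than in every control library. Mkl1, which encodes MRTF-A, stood at 7.59 to 16.0 CPM in the 6 control libraries and at 2.15 to 3.20 CPM in the 6 dKO libraries. Mkl2, which encodes MRTF-B, stood at 30.1 to 44.1 and 15.2 to 28.1 CPM, a log2 difference of -0.88 after sham and -0.54 after TAC that did not pass (edgeR adjusted p = 0.507 and 0.518), and whole-gene counts also take reads from outside a deleted part. Markers of cardiomyocytes were abundant in every library, and none of the markers of fibroblasts, endothelial cells, macrophages or pericytes was at 0 in all libraries of a group. After TAC the summed level of 9 fibroblast markers lay between 1169 and 10092 CPM in control, against 424 to 888 CPM after sham, and between 2908 and 3994 CPM in dKO, against 316 to 726 CPM. In each genotype 4 of these 9 rose by the test described next, namely Postn, Col1a1, Col1a2 and Col3a1. Pdgfra, Dcn, Lum, Tcf21 and Dpt did not pass in either genotype, and the log2 change of Dpt in dKO was -0.18. Over both genotypes the same 4 rose, and so did Lum (log2 change 1.61, edgeR adjusted p = 0.0106), while Pdgfra, Dcn, Tcf21 and Dpt did not pass. The 8 macrophage markers summed to 135 to 288 CPM after sham and 191 to 612 CPM after TAC in control, and to 212 to 260 and 228 to 423 CPM in dKO. Among them Fcgr1 and Adgre1 rose over both genotypes (log2 changes 1.72 and 1.25, edgeR adjusted p = 0.00742 and 0.0357). The others, at 0.44 to 0.99, did not pass, and no macrophage marker passed in a genotype alone. The 7 pericyte and smooth muscle markers summed to 1162 to 1710 CPM after sham and 966 to 1233 CPM after TAC in control, and to 630 to 1472 and 707 to 895 CPM in dKO. Of these Kcnj8 and Abcc9, which encode the subunits of a potassium channel, fell over both genotypes (log2 changes -0.87 and -0.77, edgeR adjusted p = 0.0192 and 0.0468). Neither passed in a genotype alone. The others did not pass over both genotypes: Rgs5, Myh11 and Pdgfrb stood at -0.40, -0.20 and -0.043, and Notch3 and Cspg4 at 0.072 and 0.56. Cardiomyocyte markers, 8 genes, summed to 54600 to 71387 and 46006 to 73935 CPM in control and to 52774 to 107020 and 43622 to 50653 CPM in dKO. Over both genotypes Pln and Tnni3 fell (log2 changes -0.70 and -1.09, edgeR adjusted p = 0.0184 and 0.0432), and neither passed in a genotype alone. Myh6, Myl2 and Tnnt2, at -0.64, -0.67 and -0.34, and Mybpc3, Actc1 and Ryr2, at 0.29, 0.28 and 0.18, did not pass. The part of other cells in the changes below was not tested, and in RNA from a mixed preparation fewer cells of a type and less RNA per cell cannot be told apart. Libraries dKO sham replicate 1 and dKO TAC replicate 2 stood apart from the others: over 9741 genes deviations of log2 CPM correlated negatively with transcript length (Spearman rho -0.62 and -0.60, against -0.10 to 0.11 in the control libraries). Each deviation is from the mean of the other libraries of the group, and the other 4 dKO libraries, set against a mean that holds 1 of these 2, had rho of 0.46 to 0.65. Mitochondrial genes took 16.5% and 15.3% of the counts in these 2 libraries and 23.2% to 32.6% in the other 10. Changes of a call without the 2 are given beside each result.

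Across the 7 comparisons, TAC moved Cdkn1c down in both genotypes and Ccnd1 up over both genotypes together, and loss of MRTF-A and MRTF-B moved none of the 9 past the threshold. A gene was called where the quasi-likelihood test of edgeR, fitted on all 12 libraries, gave an adjusted p (Benjamini-Hochberg, over 14712 genes) under 0.05. In control hearts 1 of the 9 was called after TAC (Cdkn1c, lower), where 2.25% of all genes tested were called, 1.9% higher and 0.347% lower. In dKO hearts it was again 1 of 9 (Cdkn1c, lower), against 7.39% of all genes (4.2% higher, 3.19% lower), and with the genotypes averaged it was 2 of 9 (Ccnd1 higher, Cdkn1c lower), against 16.6% (9.53% higher, 7.08% lower). Counts of 1 or 2 genes among 9 are too small to be set apart from these shares. For dKO against control, 0 of 9 were called after sham (0.068% of all genes), 0 after TAC (0.428%) and 0 with the surgeries averaged (0.585%). At an unadjusted p under 0.05 these counts were 1 (Ccnd3), 1 (Cdkn1c) and 0, and DESeq2 and limma-voom also called 0. The interaction test, of whether TAC acted differently in dKO (dKO minus control), called 0 of 9 and 0% of all genes, with 1 of 9 (Cdkn1c) at an unadjusted p under 0.05 and 0 of 9 by DESeq2 and limma-voom.

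**Figure D1:**
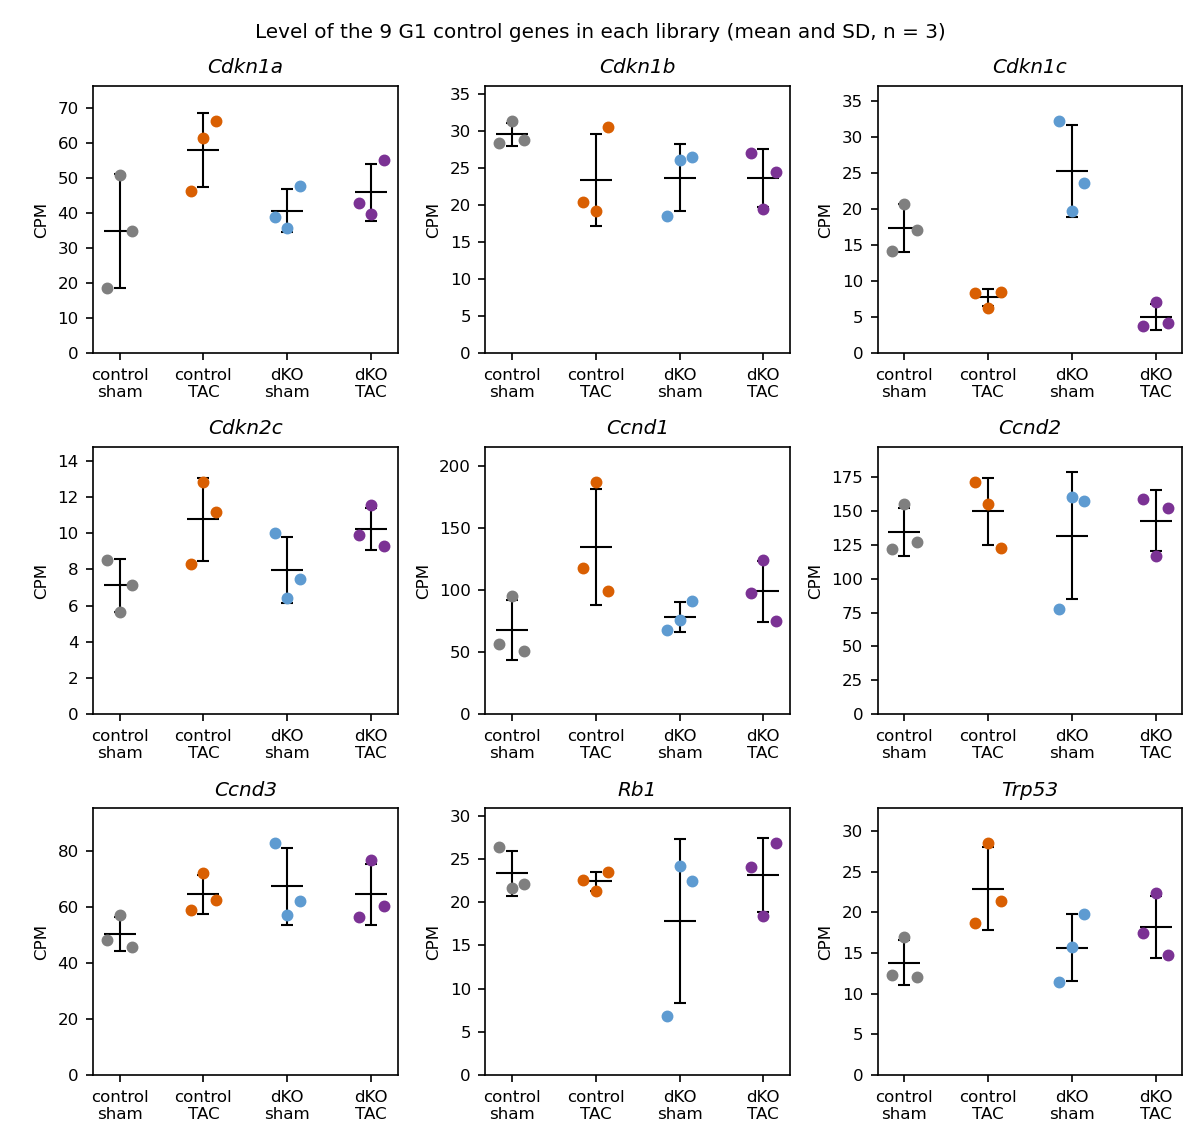
Level of each gene in CPM (vertical axis, from 0) in the 12 libraries, by group; points are libraries, the long bar is the group mean and the whiskers are 1 SD (n = 3). Every Cdkn1c value after TAC, 3.75 to 8.52 CPM, lies below every value after sham, 14.2 to 32.3 CPM.

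Cdkn1c encodes p57, a CIP/KIP inhibitor that is expressed from the maternal allele of an imprinted cluster and is known for taking cells out of the cycle during development. The gene lies on chromosome 7, chr7:143458339-143461050 on the minus strand (GRCm38, GENCODE M21). Control libraries held 14.2, 20.8 and 17.1 CPM after sham and 8.35, 6.30 and 8.52 CPM after TAC. In dKO it stood at 32.3, 19.8 and 23.6 CPM after sham and at 3.75, 7.08 and 4.11 CPM after TAC. TAC and sham did not overlap in either genotype, and the highest value of all was in dKO sham replicate 1. With the length trend removed that library stood at 20.2 CPM, the lowest of its group, the others being at 20.5 and 24.2 CPM. TAC, at 4.20 to 8.83 CPM over both genotypes, still lay below every sham library. Cdkn1c fell by 1.17 ± 0.27 on the log2 scale (SE) after TAC in control, 2.25-fold, with an edgeR Benjamini-Hochberg adjusted p = 0.0478. In dKO it fell by 2.33 ± 0.28, 5.04-fold (adjusted p = 0.00167, edgeR), and with the genotypes averaged by 1.75 ± 0.20, 3.37-fold (adjusted p = 0.000374, edgeR). As given above, 2 of the 7 markers of pericytes and smooth muscle cells also fell over both genotypes, while the others did not pass. The cardiomyocyte markers Pln and Tnni3 fell over both genotypes too, and the other cardiomyocyte markers did not pass. The part of a changed mix of cells in the fall of Cdkn1c was not tested.

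The fall of Cdkn1c was 1.17 ± 0.38 log2 units further down in dKO than in control, a difference that did not pass (interaction, edgeR adjusted p = 0.841). Between genotypes its estimate was 0.54 ± 0.27 after sham and -0.63 ± 0.27 after TAC, with edgeR adjusted p-values of 0.507 and 0.530. Without the 2 libraries that stood apart, the estimate after TAC was -0.97, and that difference passed (edgeR adjusted p = 0.0371). The call in control rested close to the threshold: of 12 fits that each left out 1 library, 9 lost it (edgeR adjusted p = 0.0590 to 0.212), and it was kept when the library left out was control TAC replicate 1, dKO sham replicate 1 or dKO TAC replicate 2. The calls in dKO and over both genotypes were kept in all 12 of these fits, with edgeR adjusted p-values of 0.00103 to 0.0157 and 0.000341 to 0.00189.

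Cdkn1a encodes p21, the CIP/KIP inhibitor that p53 induces. It lies at chr17:29090976-29100727 on the plus strand and measured 18.6, 50.9 and 34.9 CPM in control hearts after sham and 46.2, 61.4 and 66.3 CPM after TAC. In dKO it stood at 38.7, 35.6 and 47.6 CPM after sham and 42.8, 39.7 and 55.1 CPM after TAC. The control groups overlapped through control sham replicate 2, control sham spanned the widest range, and the dKO groups overlapped. Its log2 change after TAC was 0.73 ± 0.30 in control (edgeR adjusted p = 0.234), 0.17 ± 0.30 in dKO (0.732) and 0.45 ± 0.21 over both (0.161), so Cdkn1a did not pass. Without control sham replicate 2 the averaged change passed, at an edgeR adjusted p = 0.0399.

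The p53 response element ahead of Cdkn1a is shown because p53, the product of Trp53, is known to act on Cdkn1a through such elements. The stretch is the 250 bases before the more distal of the 2 annotated starts of Cdkn1a, chr17:29090729-29090978, plus strand, 5′ to 3′, taken from RefSeq on GRCm38.p6. Capitals mark the match to the element, at chr17:29090928-29090947.
Cdkn1a distal promoter: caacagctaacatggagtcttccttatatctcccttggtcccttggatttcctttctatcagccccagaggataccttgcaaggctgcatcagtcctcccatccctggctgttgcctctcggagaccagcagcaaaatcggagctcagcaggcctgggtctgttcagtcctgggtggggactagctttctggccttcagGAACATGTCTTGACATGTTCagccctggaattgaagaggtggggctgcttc
The match, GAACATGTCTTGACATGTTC, consists of a pair of 10-base units and departs from the consensus at 1 base, the most that was allowed. It runs from 51 to 32 bases before the start. Promoter windows of 300 bases (250 before to 50 after a start) were found for 5 of the 9 genes, Cdkn1a, Cdkn1b, Cdkn2c, Ccnd3 and Trp53, with 8 windows in all. Of these 8 the element was found in this window alone, and on both strands it occurs in 22 of 32851 windows of all genes, 0.067%. The CArG box, the sequence bound by SRF, was found in 0 of the 8 windows and in 1.63% of all windows. GGGCGG, the GC box, was in 5 of the 8 windows and in 35.7% of all. These are letter matches in a window and not measured binding sites.

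Cdkn1b encodes p27, the CIP/KIP inhibitor abundant in resting cells (chr6:134920401-134925513, plus strand). Its sham levels were 28.5, 31.4 and 28.9 CPM in control and 18.5, 26.1 and 26.5 CPM in dKO. After TAC they were 20.4, 19.3 and 30.5 CPM in control and 27.1, 19.5 and 24.5 CPM in dKO. Every dKO sham library lay below every control sham library, which made Cdkn1b the 1 gene of the 9 whose genotypes did not overlap after sham (18.7% of all genes did not). The log2 difference was -0.32 ± 0.21 (edgeR adjusted p = 0.531) and did not pass. After TAC its estimates were -0.34 ± 0.21 in control and -0.0040 ± 0.21 in dKO, with edgeR adjusted p-values of 0.478 and 0.993.

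Counting groups that did not overlap gave 4 of the 9 genes for TAC in control (Cdkn1c, Ccnd1, Ccnd3 and Trp53; 21.8% of all genes) and 1 for TAC in dKO (Cdkn1c; 30.7%). It gave 1 for all sham against all TAC libraries (Cdkn1c; 6.54%), 0 for dKO against control after TAC (17.6%) and 0 for all dKO against all control libraries (1.41%).

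Within the CIP/KIP family the balance between Cdkn1a and Cdkn1c shifted after TAC in both genotypes. Levels per kilobase of exon (RPKM) were taken for this, and each gene was given as a percentage of the family's sum in the library. The share of Cdkn1c went from 34.8% ± 2.72 (SD, n = 3) after sham to 15.2% ± 3.35 after TAC in control, and from 42.4% ± 7.82 to 12.1% ± 5.39 in dKO. That of Cdkn1a went from 38.0% ± 8.78 to 64.5% ± 5.14 in control and from 39.4% ± 4.04 to 62.5% ± 4.61 in dKO. No TAC library overlapped a sham library in either share: Cdkn1a made up 28.4% to 45.6% after sham and 59.0% to 70.2% after TAC. A two-sided exact permutation test, with surgery permuted within genotype, gave a mean difference of 24.8 percentage points for Cdkn1a and -24.9 for Cdkn1c. Each had an exact permutation p = 0.005, the smallest that the 400 arrangements can give, and a Benjamini-Hochberg adjusted p = 0.03 over 12 share tests. The mean share of Cdkn1b was lower after TAC in control, 27.2% ± 6.07 against 20.2% ± 2.79, and higher in dKO, 18.2% ± 4.70 against 25.4% ± 4.04. These opposite differences average to 0.088 points (p = 0.98, exact permutation), and whether they differ between the genotypes was not tested. Without the 2 libraries that stood apart the differences were 24.7 and -24.2 points, and with fewer arrangements left neither passed (exact permutation, adjusted p = 0.1). Each unadjusted p was then the smallest that the arrangements left can give. Shares of 3 genes sum to a whole, so a fall of Cdkn1c alone raises the share of Cdkn1a, and Cdkn1a alone did not pass above. Mean RPKM in dKO after sham and TAC was 11.4 and 12.9 for Cdkn1a, 5.21 and 5.20 for Cdkn1b, and 12.4 and 2.44 for Cdkn1c. In control these means were 9.81 and 16.3, 6.50 and 5.14, and 8.52 and 3.79 RPKM. Between genotypes the exact permutation tests gave differences of -0.33, -1.94 and 2.27 points for Cdkn1a, Cdkn1b and Cdkn1c, none of which passed (adjusted p = 0.98, 0.807 and 0.807).

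**Figure D2:**
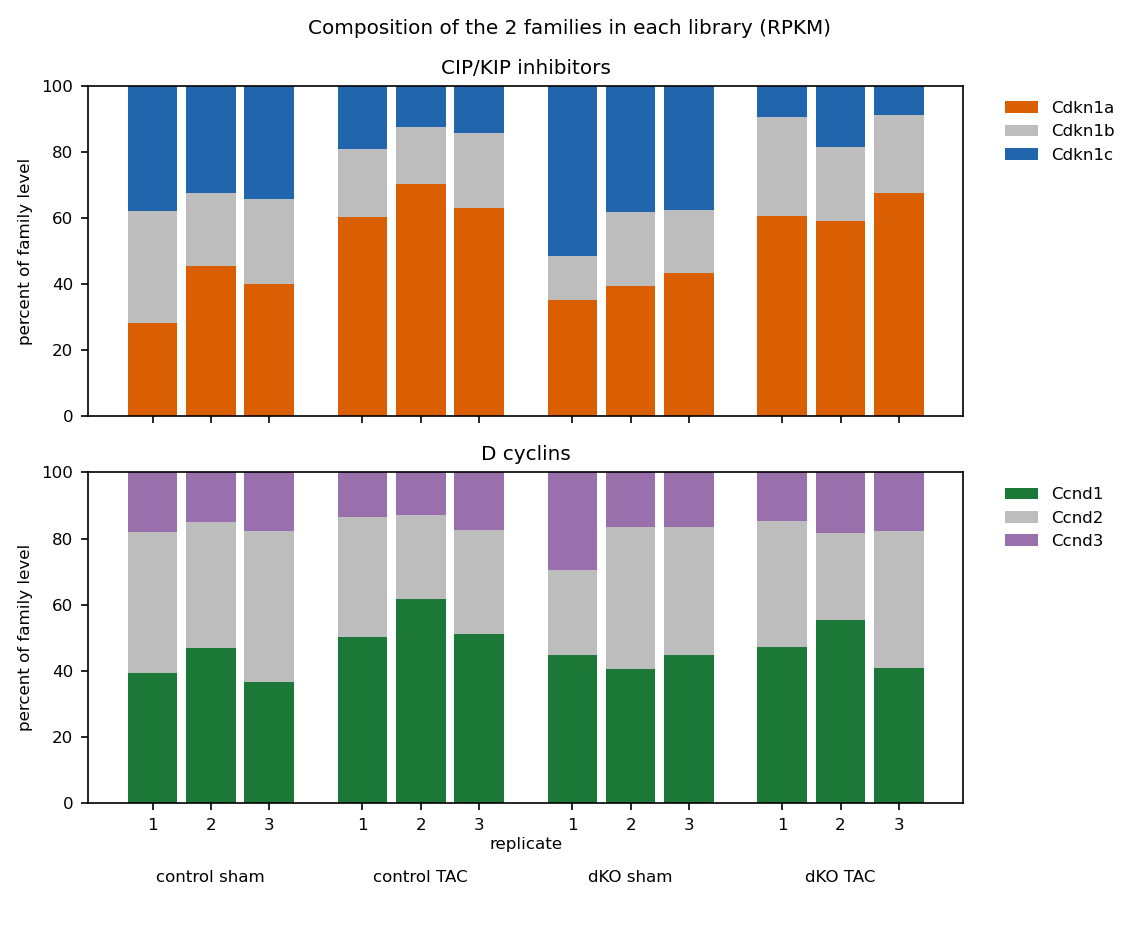
Percentage of the family's summed RPKM (vertical axis) that each CIP/KIP inhibitor (upper panel) and each D cyclin (lower panel) takes in each of the 12 libraries (bars; replicates 1 to 3 of each group). After TAC the Cdkn1c segment is between 8.79% and 19.0% in all 6 libraries, against 32.4% to 51.4% after sham.

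Cdkn2c encodes p18, the INK4 inhibitor of CDK4 and CDK6 (chr4:109660876-109667189, minus strand). Control hearts had 8.55, 5.65 and 7.14 CPM of it after sham and 8.31, 12.8 and 11.2 CPM after TAC. In dKO it measured 10.0, 6.44 and 7.45 CPM after sham and 9.88, 11.6 and 9.32 CPM after TAC. The medians of both TAC groups lay above those of the sham groups and the ranges overlapped, in dKO through the high value of dKO sham replicate 1. Its change was 0.60 ± 0.24 in control, 0.37 ± 0.23 in dKO and 0.48 ± 0.17 over both, with edgeR adjusted p-values of 0.212, 0.327 and 0.0655. Without the 2 libraries that stood apart the averaged change was 0.53 and passed (edgeR adjusted p = 0.0376), as it did without dKO sham replicate 1 alone or control TAC replicate 1 alone (edgeR adjusted p = 0.0232 and 0.0321), by DESeq2 (adjusted p = 0.0433) and with the length trend removed (edgeR adjusted p = 0.0138). Of the other INK4 genes, Cdkn2b rose by 1.57 ± 0.42 over both genotypes (edgeR adjusted p = 0.0267), from group means of 0.419 CPM in control and 0.279 CPM in dKO after sham to 0.977 and 1.01 CPM after TAC. Cdkn2d stood at 0.087 ± 0.20 (adjusted p = 0.799, edgeR) and did not pass, and Cdkn2a was too low to be tested.

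Ccnd1 encodes cyclin D1, which is induced by growth signals and by attachment (chr7:144929931-144939925, minus strand). Control levels were 56.1, 95.3 and 51.2 CPM after sham and 118, 187 and 98.9 CPM after TAC, with no overlap. In dKO they were 67.6, 76.0 and 91.0 CPM after sham and 98.0, 124 and 74.9 CPM after TAC, where replicate 3 of the TAC group lay inside the sham range. Averaged over genotypes Ccnd1 rose by 0.67 ± 0.21 on the log2 scale, 1.59-fold, with an edgeR adjusted p = 0.0479. Its change was 0.996 ± 0.30 in control and 0.34 ± 0.30 in dKO, and neither passed on its own (edgeR adjusted p = 0.111 and 0.473), nor did their difference of -0.66 ± 0.42 (0.841). The averaged call was kept when the library left out was control sham replicate 2, control TAC replicate 1 or 3, dKO sham replicate 3 or dKO TAC replicate 3. It was lost in the other 7 of 12 such fits (edgeR adjusted p = 0.0704 to 0.128). The summed fibroblast markers of the sham replicates 1 to 3, 463, 888 and 424 CPM in control and 316, 573 and 726 CPM in dKO, stood in the same order as their Ccnd1 levels. Those of the TAC replicates, 1169, 3723 and 10092 CPM in control and 3994, 2908 and 3404 CPM in dKO, did not, and the part of these cells in the rise of Ccnd1 was not tested. Without the 2 libraries that stood apart the change was 0.52, with an edgeR adjusted p = 0.122. Exons of Ccnd1 overlap those of LTO1 on the opposite strand by 1100 bases, and how far reads of either were counted for the other was not tested. In control alone Ccnd1 passed by DESeq2 (adjusted p = 0.0271) and without control sham replicate 2 (edgeR adjusted p = 0.0457).

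Ccnd2, which encodes cyclin D2, lies at chr6:127125162-127152193 on the minus strand and had the highest CPM of the 9 in control sham, at 122, 155 and 127. After TAC control hearts held 172, 155 and 122 CPM. The dKO levels were 77.9, 161 and 157 CPM after sham and 159, 117 and 152 CPM after TAC. All groups overlapped, and the lowest value was in dKO sham replicate 1, 1 of the 2 libraries in which long transcripts were low. The other, dKO TAC replicate 2, held the lowest value of its own group. With the length trend removed these libraries stood at 122 and 130 CPM. The changes after TAC were 0.15 ± 0.26 and 0.11 ± 0.26 in control and dKO (edgeR adjusted p = 0.850 and 0.802), and the latter was -0.028 without the 2 libraries that stood apart.

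Ccnd3, which encodes cyclin D3, the form common in differentiated cells, lies at chr17:47505051-47599691 on the plus strand. Levels in control were 48.3, 57.1 and 45.6 CPM after sham and 58.8, 72.3 and 62.4 CPM after TAC, with no overlap. Levels in dKO were 82.9, 57.0 and 62.3 CPM after sham and 56.4, 76.9 and 60.3 CPM after TAC, which overlap. The highest values in dKO were those of dKO sham replicate 1 and dKO TAC replicate 2, the libraries that stood apart, and with the length trend removed these became 125 and 84.3 CPM. That step took Ccnd3 at 8775 bases, the length of all its annotated exons, while its principal transcript has 2113. In dKO sham replicate 1 the log2 trend was -0.59 for Ccnd3 and 0.68 for Cdkn1c, whose exons sum to 2039 bases. The trend at the shorter length of Ccnd3 was not tried. Its change after TAC was 0.36 ± 0.19 in control and -0.062 ± 0.19 in dKO, and dKO differed from control after sham by 0.42 ± 0.19. None passed, with edgeR adjusted p-values of 0.376, 0.855 and 0.507. Its exons overlap those of Bysl on the opposite strand by 361 bases, and the sources used here do not say whether reads were counted by strand.

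Among the D cyclins Ccnd1 took 40.9% ± 5.25 (SD, n = 3) of the summed RPKM after sham and 54.3% ± 6.42 after TAC in control, and 43.4% ± 2.39 and 47.8% ± 7.34 in dKO. The mean difference after TAC was 8.85 percentage points (exact permutation p = 0.03, adjusted p = 0.12), which did not pass. With the length trend removed it was 11.4 points and without dKO TAC replicate 3 it was 10.6 points, and then it passed (exact permutation, adjusted p = 0.04 and 0.02). The value of 11.4 rests on taking Ccnd3 at 8775 bases, all its annotated exons, and not at the 2113 of its principal transcript. For Ccnd2 and Ccnd3 the differences were -5.70 and -3.16 points (exact permutation, adjusted p = 0.37 for both).

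Rb1 encodes the retinoblastoma protein, the main target of the cyclin D kinases (chr14:73183673-73325822, minus strand). In control hearts it had the narrowest range of the 9, highest over lowest, at 26.3, 21.7 and 22.1 CPM after sham and 22.6, 21.2 and 23.4 CPM after TAC. In dKO it stood at 6.88, 24.2 and 22.4 CPM after sham and 24.1, 18.4 and 26.9 CPM after TAC, so that 1 library, dKO sham replicate 1, held a value far below the other 11. With the length trend removed that library still stood at 8.46 CPM. The change after TAC was -0.058 ± 0.34 in control and 0.37 ± 0.34 in dKO (edgeR adjusted p = 0.965 and 0.504), and without dKO sham replicate 1 the estimate in dKO was -0.013. Exons of Rb1 overlap those of Rcbtb2 by 488 bases and those of Lpar6 by 408 bases on the opposite strand.

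Trp53 encodes p53, the factor that induces Cdkn1a and other genes of arrest and death after DNA damage (chr11:69580359-69591873, plus strand). In control it measured 12.3, 17.0 and 12.1 CPM after sham and 18.7, 28.5 and 21.4 CPM after TAC, with no overlap. In dKO the values were 11.5, 15.8 and 19.8 CPM after sham and 17.5, 22.4 and 14.7 CPM after TAC, which overlap. Its change was 0.73 ± 0.25 in control, 0.21 ± 0.25 in dKO and 0.47 ± 0.18 over both, and none passed (edgeR adjusted p = 0.153, 0.601 and 0.0859). The averaged change passed without dKO sham replicate 3 (edgeR adjusted p = 0.0456). In dKO the change was -0.14 without the 2 libraries that stood apart (edgeR adjusted p = 0.742).

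**Figure D3:**
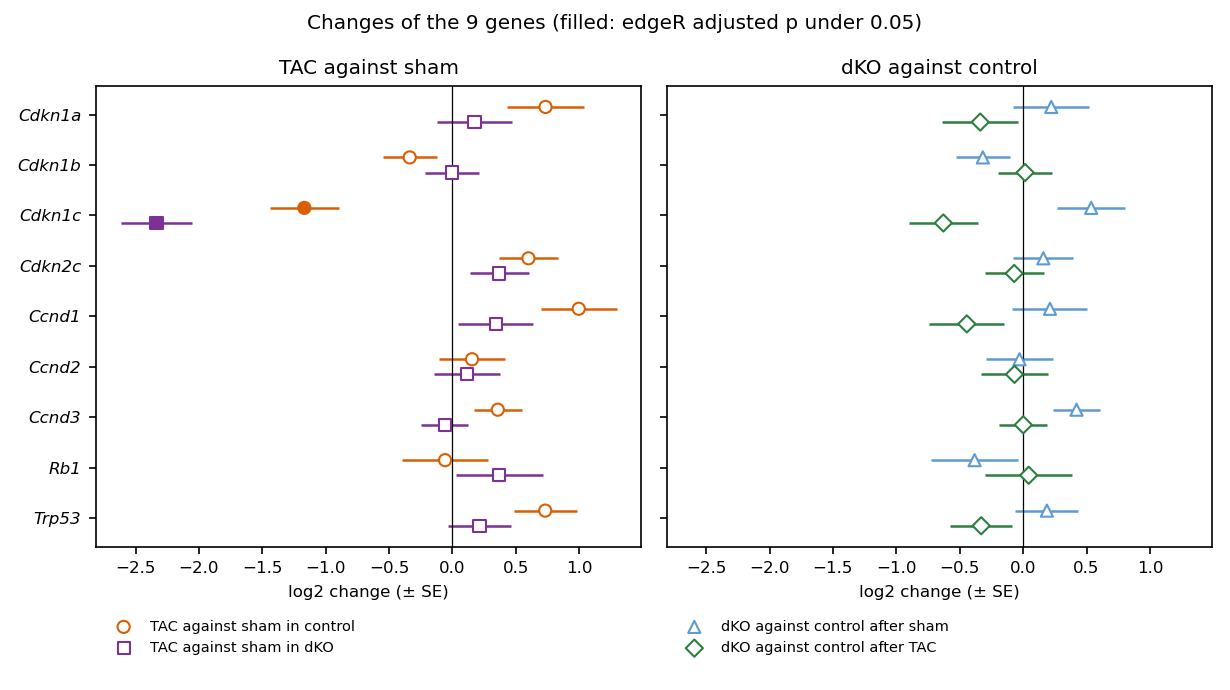
Log2 change of each of the 9 genes (horizontal axis; bars are 1 SE) for TAC against sham (left) and dKO against control (right); filled symbols passed at an edgeR adjusted p under 0.05. The filled symbols are those of Cdkn1c, at -1.17 in control and -2.33 in dKO, and no symbol is filled on the right.

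Over the 9 genes the median log2 change after TAC was 0.36 in control, beside 0.00065 over all genes tested, and 0.17 in dKO, beside -0.0062. For dKO against control the medians were 0.19 after sham (all genes 0.017) and -0.071 after TAC (-0.032). The 2 TAC comparisons share no library, while each shares its groups with both genotype comparisons.

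The order of the levels was read per kilobase, since CPM does not compare genes of different length. In control sham, on the length of all annotated exons, Ccnd1 and Ccnd2 were highest at 14.3 RPKM each, followed by Cdkn1a at 9.81, Cdkn1c at 8.52, Cdkn1b at 6.50, Ccnd3 at 5.74, Rb1 at 3.88, Trp53 at 3.41 and Cdkn2c at 2.65. Most neighbours in this order overlapped in their libraries, with gaps below Cdkn1c and below Ccnd3. The first of these gaps was narrow, from 6.97 RPKM as the lowest of Cdkn1c to 6.90 as the highest of Cdkn1b. After TAC Cdkn1c moved from the fourth place to the eighth in control, at 3.79 RPKM, and from the third to the ninth in dKO, where 2.44 RPKM followed 12.4 RPKM after sham. Its mean was the lowest of the 9 in dKO TAC, below Cdkn2c at 3.82 RPKM. The highest library of Cdkn1c and the lowest of Cdkn2c there were both at 3.47 RPKM. The place of Ccnd3 depends on the length used: its annotated exons sum to 8775 bases and its principal transcript to 2113, and on the latter length it led the control sham order at 23.8 RPKM. The places of Cdkn1c do too: on the principal transcript it went from the fifth to the ninth in both genotypes.

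Genes whose levels followed each of the 9 most closely over the 12 libraries were sought among 9695 genes of at least 5 CPM. The correlations of log2 CPM carry no p, because the libraries share depth, surgery and any difference in preparation. Cdkn1c ran with Car4, a membrane-bound carbonic anhydrase (Pearson r = 0.983), Slc26a10 (0.974) and Eepd1 (0.967), and these values were 0.981, 0.968 and 0.971 without the 2 libraries that stood apart. Ccnd1 ran with Sema3f (0.974) and Trp53 with Nes, the gene of the filament protein nestin (0.975), which was also among the 3 closest to Ccnd1 (0.949). Cdkn1b ran with Ccng2, a cyclin of resting cells (0.959), Cdkn2c with the glucose transporter gene Slc2a1 (0.908) and Cdkn1a with Slc4a2 (0.906). For Ccnd2 it was Parg (0.956) and for Ccnd3 Cdipt (0.958), and these became 0.832 and 0.921 without the 2 libraries that stood apart. The nearest gene to Rb1 was Sik2 at 0.989, which became 0.691 without the same pair of libraries.

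Downstream of the 9 genes, lists of the other G1, p53, E2F and mitosis genes were read in the same fit. Of 111 tested genes in 8 lists, 18 rose and 0 fell after TAC in control, 19 rose and 3 fell in dKO, and 44 rose and 5 fell over both genotypes. As shares, 16.2% rose in control, beside 1.9% of all genes tested, 17.1% rose and 2.7% fell in dKO, beside 4.2% and 3.19%, and 39.6% rose and 4.5% fell over both, beside 9.53% and 7.08%. The lists were chosen with earlier results of these data known, so these shares are a description and not an independent test. By DESeq2 32 of the listed genes were called in control and 38 in dKO, beside 942 and 2273 over all genes. A fit on the control libraries alone called 1, beside 2 over all genes. The control count rested on single libraries: it was 0 without control sham replicate 1 or 3, 1 without control TAC replicate 2 and 6 without control TAC replicate 3. Over all genes those fits called 2, 3, 14 and 109, where the fit reported here called 331. The listed count was 33 without control TAC replicate 1, 28 without control sham replicate 2 and 29 without dKO sham replicate 1, beside 1130, 426 and 723. The dKO count of 22 became 4 when dKO TAC replicate 1 was left out and 14 when replicate 3 was. Over all genes the dKO count of 1087 became 210 and 306. Both counts fell in each of these fits, the listed one by a smaller part when replicate 3 was left out. The fibroblast markers Postn, Col1a1, Col1a2 and Col3a1 also rose after TAC in both genotypes, as given above. The part of fibroblasts in these counts was not tested.

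Genes of G2 and mitosis had the highest medians of the 8 lists, and 9 of 18 rose in control, 12 of 18 in dKO and 16 of 18 over both. The list medians were 2.43 and 2.58 in control and dKO, beside 0.00065 and -0.0062 for all genes. Mki67, a marker of cycling cells, rose from 5.05 ± 0.722 CPM (SD, n = 3) to 59.8 ± 22.8 CPM in control and from 6.37 ± 3.58 to 46.4 ± 8.66 in dKO. These are log2 changes of 3.57 ± 0.42 and 2.85 ± 0.41 (edgeR adjusted p = 0.00788 and 0.00394). Birc5, which encodes survivin, rose by 2.89 and 2.69, and the mitotic kinesin gene Kif20a by 2.21 and 2.25. Bub1, a spindle checkpoint kinase gene, rose by 3.63 in dKO. In the fit without the 2 libraries that stood apart, 11 of 18 rose in control, 8 in dKO and 15 over both. Over all 14923 genes tested that fit called 771 in control and 1580 in dKO, higher or lower, where the fit reported here called 331 and 1087. The counts of that fit in the lists below stand beside the same totals.

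Of 26 E2F targets and S phase genes 6 rose in control, 4 rose and 1 fell in dKO, and 16 rose and 1 fell over both. Tk1, which encodes thymidine kinase, rose by 2.38 and 2.05, Uhrf1, a maintenance factor of DNA methylation, by 2.73 and 2.26, and Mcm10, a replication factor gene, by 2.46 and 1.92. Ung, the gene of a uracil-DNA glycosylase, fell by 1.65 ± 0.33 in dKO (edgeR adjusted p = 0.0143), and its estimate in control was -0.42. Without the same pair of libraries 8 rose in control, 2 rose and 1 fell in dKO, and 14 rose and 1 fell over both.

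Among 12 pocket protein and E2F-DP genes 3 rose in control (E2f8, E2f1, E2f2), 2 in dKO (E2f8, E2f2) and 6 over both. E2f8, an E2F that represses, rose from 0.687 ± 0.168 to 4.08 ± 1.67 CPM in control and from 1.09 ± 0.219 to 3.35 ± 0.613 CPM in dKO (SD, n = 3). E2f1, an activating E2F, rose by 2.28 ± 0.51 in control (edgeR adjusted p = 0.0417) and stood at 1.43 ± 0.50 in dKO (0.0912). The relatives of Rb1 did not pass: Rbl1 had 1.02 and 1.01, and Rbl2 -0.48 and -0.15, in control and dKO. Leaving out the 2 libraries that stood apart, 4 of the 12 rose in control, 1 in dKO and 7 over both.

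Of the 9 G1 kinases and E cyclins edgeR called 0 in either genotype alone, while 3 in each had an unadjusted p under 0.05. Over both, Ccne1 and Ccne2, the E cyclins that follow the D cyclins, rose by 0.95 ± 0.25 and 0.93 ± 0.23, and Ccnh, a subunit of the CDK-activating kinase, fell by 0.62 ± 0.15 (edgeR adjusted p = 0.0243, 0.0169 and 0.0150). The partners of the D cyclins did not pass: Cdk4 stood at 0.23 and -0.16 and Cdk6 at 0.48 and 0.57 after TAC in control and dKO. Of 11 subunits of G1 ubiquitin ligases edgeR called 0 in control (3 at an unadjusted p under 0.05) and 1 fell in dKO, Fbxo31 (-1.13 ± 0.28, edgeR adjusted p = 0.0305), a subunit that directs the degradation of cyclin D1. Over both, Fbxo31 fell by 0.996 ± 0.20, and Skp2, which directs that of p27, rose by 1.70 ± 0.36 (edgeR adjusted p = 0.00619 and 0.00821). When the 2 libraries that stood apart were left out, 1 kinase or cyclin gene fell in control, 1 rose in dKO, and 3 rose and 1 fell over both. Of the ligase subunits 2 rose and 0 fell in dKO in that fit, so that Fbxo31 was no longer called there.

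Of 24 p53 targets edgeR called 0 in control, and 7 had an unadjusted p under 0.05. In dKO Zmat3 rose by 0.86 ± 0.19 and Gadd45a fell by 1.75 ± 0.41 (edgeR adjusted p = 0.0215 and 0.0253), and over both genotypes 2 rose (Zmat3, Phlda3) and 2 fell (Gadd45a, Fas). The 2 called in dKO are 8.33% of the list, beside 7.39% of all genes, and the 4 over both are 16.7%, beside 16.6%, so the share of targets called is near the background. Gadd45a, a gene of the response to DNA damage, averaged 16.6 ± 2.54 CPM after sham and 6.75 ± 3.00 CPM after TAC in control, and 19.7 ± 12.1 and 5.81 ± 1.26 CPM in dKO (SD, n = 3). The list medians were 0.19 in control and 0.013 in dKO. By edgeR none of 9 p53 regulators passed, with 1 in control and 2 in dKO at an unadjusted p under 0.05. With the 2 libraries that stood apart left out, 2 targets rose and 1 fell in each genotype, 3 rose and 2 fell over both, and 2 regulators rose in dKO. Mdm2, which encodes the ligase that degrades p53, averaged 53.1 and 48.5 CPM in control and 52.1 and 49.8 CPM in dKO after sham and TAC (log2 changes -0.13 ± 0.15 and -0.067 ± 0.15).

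**Figure D4:**
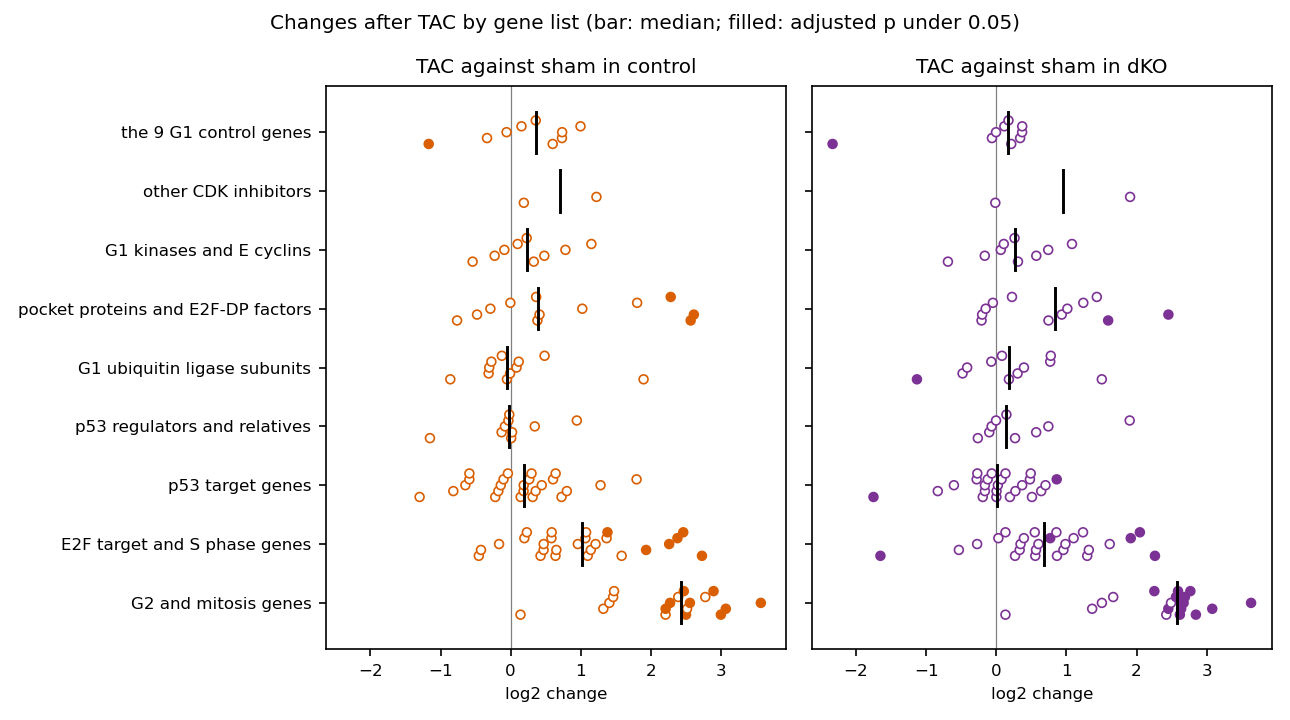
Log2 change after TAC (horizontal axis) of each tested gene in the 9-gene set and in 8 lists of cell cycle genes (rows), in control (left) and dKO (right); filled points passed at an edgeR adjusted p under 0.05 and the bar is the list's median. The mitosis list lies farthest right, with medians of 2.43 and 2.58, while the 9 genes lie about medians of 0.36 and 0.17 with Cdkn1c at the left of their row.

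Between genotypes edgeR called 0 of the 111 listed genes after sham and 0 after TAC, as did DESeq2 and limma-voom, with 5 and 6 at an unadjusted p under 0.05. Without the 2 libraries that stood apart it called 2 after TAC, and without dKO sham replicate 1 alone it called 1. In the interaction 0 were called by edgeR, DESeq2 and limma-voom, and 1 had an unadjusted p under 0.05. Mki67 differed by 0.35 ± 0.39 and -0.37 ± 0.37, E2f1 by 0.53 ± 0.52 and -0.31 ± 0.47, and Ccne1 by 0.63 ± 0.36 and 0.22 ± 0.34 after sham and TAC. Cdkn2d stood at 0.76 ± 0.29 and 0.56 ± 0.29 (edgeR adjusted p = 0.507 and 0.628). The corresponding values of the 9 genes lay between -0.38 (Rb1) and 0.54 (Cdkn1c) after sham and between -0.63 (Cdkn1c) and 0.044 (Rb1) after TAC.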

How the data were processed

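Poly(A) RNA of 12 libraries (200 ng of RNA, a stranded kit, single reads of 100 nt, per the labels' protocols) is held as raw read counts per gene, whole numbers as deposited by the authors, for 49568 genes. The submitters' processing notes name GRCm38.p5 and, without their roles, featureCounts, Subread 1.5.0p3, STAR 2.5.2b and Trimmomatic 0.36. The sources used here do not give the settings, the annotation, the use of strand or the treatment of multiple matches. The quasi-likelihood test of edgeR 4.0.16 (R 4.3.3, TMM, filterByExpr by group) was fitted on all 12 libraries (1 coefficient a group, leaving 8 residual degrees of freedom), and p-values were adjusted by Benjamini-Hochberg over 14712 genes. An SE comes from the log2 change and its F statistic. Averaged comparisons weight both genotypes, or both surgeries, equally.

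Coordinates and exon lengths come from GENCODE M21 on GRCm38, matched by symbol. RPKM uses the length of all annotated exons on TMM-scaled library sizes. Shares were tested by exact permutation within strata. Named are the 9 genes, Mdm2, Cdk4, Cdk6, Ccne1, E2f1, Rbl1, Rbl2 and Mki67 throughout, up to 3 called genes of smallest p per list and comparison, and the 3 genes closest to each of the 9 by Pearson r (prior count 2). Cdkn2b, Cdkn2d and members of lists with few calls were named after their values were seen. The genes and lists were chosen with earlier results of these data known. The steps were tested on simulated data. Alternatives were RLE factors, DESeq2 1.42.0, limma-voom (limma 3.58.1), no filter, only the groups compared, a replicate block, a length trend removed (a natural spline on log exon length for each library, as an offset), and libraries left out. A second transcript length was added after the data were seen. Promoter windows come from RefSeq (GRCm38.p6). Figures were drawn with matplotlib 3.10.9.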

Additional observations from a re-analysis of the deposited data

How the results depend on the processing

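Alternatives were read as a change of direction or of call against the fit reported above, and the cause of each change was not tested. Cdkn1c kept its direction after TAC in both genotypes in every alternative run, and it kept its call in dKO and over both genotypes. For TAC in control the number of the 9 genes called was 1, and it was 2 with DESeq2, 2 without the filter, 0 with limma-voom, 0 with only the groups compared, and 0 to 1 when a library was left out. Over both genotypes it was 2, and it was 1 with limma-voom and 1 to 3 with a library left out. For dKO after TAC it was 0, and 1 without the pair that stands apart, replicate 1 of dKO sham and replicate 2 of dKO TAC.

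Replicate numbers did not pair the libraries: of 18 same-numbered pairs, 9 had deviations correlated over 0.1 (range -0.474 to 0.350), and 3 of 12 libraries correlated best with their own number. With the replicate block 0 of the 9 genes were called for TAC in control, and with the block and the length trend removed 2 were called there and 4 over both genotypes. With the block the log2 value of Cdkn1b for TAC in dKO became 0.0047 and that of Ccnd3 for dKO after TAC -0.0024. With the block and the length trend removed the value for TAC in dKO was 0.0011 for Cdkn1b and -0.10 for Ccnd2, and over both genotypes -0.0050 for Ccnd2 and -0.026 for Ccnd3. For dKO it was 0.18 for Ccnd2 and -0.048 for Cdkn2c after sham, and 0.083 and -0.072 over both surgeries.

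Other log2 values that changed sign all belonged to differences that had not passed. With the length trend removed, Ccnd2 was -0.10 for TAC in dKO, -0.0060 for TAC over both genotypes, 0.18 for dKO after sham and 0.079 for dKO over both surgeries. Ccnd3 was -0.032 for TAC over both genotypes, and Cdkn2c was -0.049 for dKO after sham and -0.072 over both surgeries. Without the pair that stands apart, TAC in dKO gave -0.028 for Ccnd2 and -0.14 for Trp53. Here dKO after sham gave 0.24 for Ccnd2 and -0.033 for Cdkn2c, dKO after TAC gave 0.058 for Ccnd2 and -0.14 for Ccnd3, and dKO over both surgeries gave 0.15 for Ccnd2, -0.099 for Cdkn2c, 0.0064 for Cdkn1a and 0.091 for Rb1. For dKO after TAC Ccnd3 was -0.0052 with DESeq2, -0.0071 with RLE factors, -0.0080 with limma-voom and -0.0023 with only the groups compared. Without the filter Cdkn1b for TAC in dKO was 0.013, and with limma-voom the interaction of Ccnd2 was 0.049.

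With 1 library left out at a time, Rb1 for TAC in control ran from -0.11 to 0.027. For TAC in dKO the ranges were -0.15 to 0.28 for Ccnd2, -0.15 to 0.13 for Cdkn1b, -0.20 to 0.11 for Ccnd3 and -0.013 to 0.65 for Rb1. Over both genotypes they were -0.00073 to 0.22 for Ccnd2 and -0.036 to 0.29 for Rb1. For dKO after sham they were -0.19 to 0.24 for Ccnd2, -0.033 to 0.31 for Cdkn2c and -0.075 to 0.60 for Cdkn1a. For dKO after TAC they were -0.18 to 0.070 for Ccnd2, -0.13 to 0.10 for Ccnd3, -0.098 to 0.27 for Cdkn1b, -0.22 to 0.083 for Cdkn2c and -0.063 to 0.20 for Rb1. The interaction of Ccnd2 ran from -0.31 to 0.13. For dKO over both surgeries the ranges were -0.13 to 0.087 for Ccnd2, -0.051 to 0.13 for Cdkn2c, -0.21 to 0.13 for Cdkn1a, -0.31 to 0.021 for Rb1, -0.20 to 0.051 for Ccnd1, -0.21 to 0.049 for Cdkn1c and -0.16 to 0.032 for Trp53.

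Among the shares, in percentage points, Ccnd1 after TAC was 11.4 with the length trend removed and 6.94 to 10.6 with a library left out. Without the pair that stands apart Cdkn1a was 24.7 and Cdkn1c -24.2 after TAC, each with an adjusted exact permutation p = 0.1, since fewer arrangements remain. Cdkn1b after TAC was -3.09 on CPM, -0.45 with the length trend removed, -1.89 on the principal transcript length, -0.47 without the pair and -1.22 to 1.75 with a library left out. For dKO against control, Ccnd2 was 0.38 with the length trend removed, 3.72 without the pair and -2.88 to 1.42 with a library left out. Cdkn1a was 0.24 on CPM, 0.71 with the length trend removed, 1.54 without the pair and -2.73 to 1.57 with a library left out. Without the pair Cdkn1b was 0.0028 and Cdkn1c -1.54.

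Counts over all genes also moved. For TAC in control the 331 genes called became 942 with DESeq2, 936 without the filter, 175 with limma-voom, 771 without the pair, 2 with only the groups compared, and 2 to 1130 with a library left out. For TAC in dKO the 1087 became 2273 with DESeq2, 1580 without the pair, 647 with only the groups compared and 210 to 1389 with a library left out. For TAC over both genotypes the 2444 ran from 1322 to 3074 with a library left out. For dKO after sham the 10 became 53 with DESeq2 and 53 without the filter, and for dKO after TAC the 63 became 285 with DESeq2 and 508 without the pair.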

Other observations

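The genes next to Cdkn1c on chromosome 7 were read as well, after the values of Cdkn1c were known. Within 500 kb of it 16 genes were tested, among them Kcnq1 and Slc22a18 of the same imprinted cluster. By edgeR none of the 16 fell after TAC in control, in dKO or over both, beside 0.347%, 3.19% and 7.08% of all genes tested. A set of 16 genes is too small to be set apart from these shares. Tnfrsf23, a decoy receptor gene of the TNF family, rose by 1.5 in control, by 1.16 in dKO and by 1.33 over both (log2, edgeR adjusted p = 0.0190, 0.0241 and 0.00111). Osbpl5 rose by 0.41 over both (edgeR adjusted p = 0.0327). The median over the 16 was 0.22 in control and 0.13 in dKO. Kcnq1ot1, the long noncoding RNA that silences the cluster on the paternal allele, stood at -0.29 in control, -1.29 in dKO and -0.79 over both, and none of these passed (edgeR adjusted p = 0.848, 0.115 and 0.134). It runs antisense within Kcnq1, and without strand in the counting the reads of the pair cannot be told apart.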
